A study of Homo sapiens with 12 samples.

Results

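TRIM22 and 9 further genes for antiviral restriction factors were followed in prostate cancer cells with and without siRNA against FOXA1, a forkhead transcription factor of prostate epithelium. The genes were taken by symbol and make up 10 of the 60106 genes in the count tables. They are TRIM5, TRIM22, BST2, RSAD2, SAMHD1, APOBEC3B, APOBEC3F, APOBEC3G, SAMD9 and SAMD9L, and each symbol had 1 row. They were picked after the change under FOXA1 siRNA in each line had been seen, so that change is given below as a description. Calls of these genes on that contrast, in the main fits or in alternative analyses, are printed but not read as support.

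Restriction factors are host proteins that block a virus at one step of its life cycle, and most are made in larger amounts when cells sense interferon. TRIM5 binds incoming retroviral capsids, BST2 (tetherin) holds budding particles at the cell surface, and the APOBEC3 enzymes deaminate cytosines in viral DNA. SAMHD1 breaks down the deoxynucleotides that reverse transcription needs, RSAD2 (viperin) makes a nucleotide that ends viral RNA chains, and SAMD9 and SAMD9L limit poxviruses and act on translation.

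The cells were PC3, an established line from a bone metastasis, and VCaP, an established line from a vertebral metastasis that carries a rearranged ERG gene. In each line 3 libraries came from cells given a control siRNA without a target, labelled NSI, and 3 from cells given FOXA1 siRNA, labelled siFOXA1, all collected at 72 h. PC3 was transfected at 20 nM in RPMI and sequenced as polyadenylated RNA (TruSeq stranded mRNA kit), and VCaP at 40 nM in DMEM and sequenced as total RNA (TruSeq total RNA kit). The siRNA sequences are not given in the sources used here, and nothing in the labels says whether replicates were separate cultures, so p-values measure only the spread between these libraries, which may be technical. Libraries held 123140099 to 188226483 counts in PC3 and 48187047 to 59839211 in VCaP. FOXA1 itself fell in both lines, from 268 ± 25.6 to 171 ± 11.5 CPM (counts scaled to a common library size) in PC3 and from 489.7 ± 46.9 to 80.6 ± 6.19 CPM in VCaP (mean ± SD, n = 3, as for every mean below). All 10 prostate and epithelial markers checked were at or above 1 CPM in VCaP, while 4 of 10 were under 1 CPM in PC3 and KLK3 was at 0 in the PC3 siFOXA1 libraries. The summed level of 12 blood cell markers was 27.4 to 29.8 CPM in PC3 NSI and 45.8 to 51.4 CPM in PC3 siFOXA1, with 11 of the 12 under 1 CPM in both groups and the red cell gene HBB at 0. The monocyte and macrophage marker CD68, at 28 ± 1.29 and 46.6 ± 2.86 CPM, made up most of that sum, and its part in the results below was not tested. In VCaP the same sum was 1.65 to 2.1 CPM in NSI and 3.3 to 4.25 CPM in siFOXA1, and HBB was again at 0. CD14 made up most of the siFOXA1 sum there, at 0.698 ± 0.0724 CPM in NSI and 2.72 ± 0.431 CPM in siFOXA1. It was the 1 blood cell marker of 3 tested in VCaP that was called, and its part in the results was not tested either.

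The promoters are shown first because the interferon-stimulated response element (ISRE), the site at which interferon-activated factors bind, can be read in them. RefSeq promoter windows (table build GRCh38.p14, from 250 bases before the start) were matched for 6 of the 10 genes, and each was found once, without a mismatch, in GRCh37. The window listed for RSAD2 lay 11.7 kb outside that gene's span in the count tables and is not printed. It is counted among the 6 windows searched, but its lack of matches does not describe the promoter of RSAD2. The windows of TRIM22, APOBEC3B, APOBEC3F and APOBEC3G were not matched. An ISRE core, written GAAANNGAAA and searched on both strands, was present in 3 of the 6 windows, those of BST2, SAMD9 and TRIM5, against 3.57% of all 35116 windows in the table. These 3 are printed 5′ to 3′ on the strand of the gene, with the ISRE matches in capitals. The BST2 window is chr19:17516390-17516689, that of SAMD9 chr7:92747243-92747542 and that of TRIM5 chr11:5706255-5706554, all on the minus strand of GRCh37.
BST2: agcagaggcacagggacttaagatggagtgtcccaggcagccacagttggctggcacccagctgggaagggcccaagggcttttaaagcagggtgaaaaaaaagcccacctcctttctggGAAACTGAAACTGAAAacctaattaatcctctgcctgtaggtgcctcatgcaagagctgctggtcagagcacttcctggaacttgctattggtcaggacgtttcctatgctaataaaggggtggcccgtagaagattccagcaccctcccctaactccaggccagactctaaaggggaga
SAMD9: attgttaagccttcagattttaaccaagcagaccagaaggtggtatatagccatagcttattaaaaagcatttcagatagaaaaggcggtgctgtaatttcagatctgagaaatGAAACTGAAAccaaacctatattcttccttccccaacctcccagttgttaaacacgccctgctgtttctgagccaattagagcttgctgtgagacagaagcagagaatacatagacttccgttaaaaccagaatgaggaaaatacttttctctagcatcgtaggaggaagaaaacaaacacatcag
TRIM5: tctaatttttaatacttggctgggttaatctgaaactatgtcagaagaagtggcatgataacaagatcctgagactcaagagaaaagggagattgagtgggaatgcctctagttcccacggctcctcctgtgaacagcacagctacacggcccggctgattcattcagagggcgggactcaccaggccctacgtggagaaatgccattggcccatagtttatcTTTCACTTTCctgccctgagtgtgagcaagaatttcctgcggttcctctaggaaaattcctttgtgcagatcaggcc

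BST2 held 2 ISRE cores that overlap, from −130 to −121 and from −124 to −115 with the start at 0. SAMD9 held 1 from −136 to −127 and TRIM5 held 1 on the opposite strand from −27 to −18. The gamma-activated site, written TTCNNNGAA, was present in the BST2 window alone among the 6, with 2 matches, the first of which ran into the first ISRE core. That site was present in 7.66% of all windows. The forkhead core TGTTTAC, a sequence of the kind that FOXA1 binds, was present in the SAMD9L window alone among the 6 (from −158 to −152, opposite strand), against 3.42% of all windows. SAMHD1 held none of these letters in its window. A match describes the sequence and says nothing about binding in these cells.

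**Figure D1:**
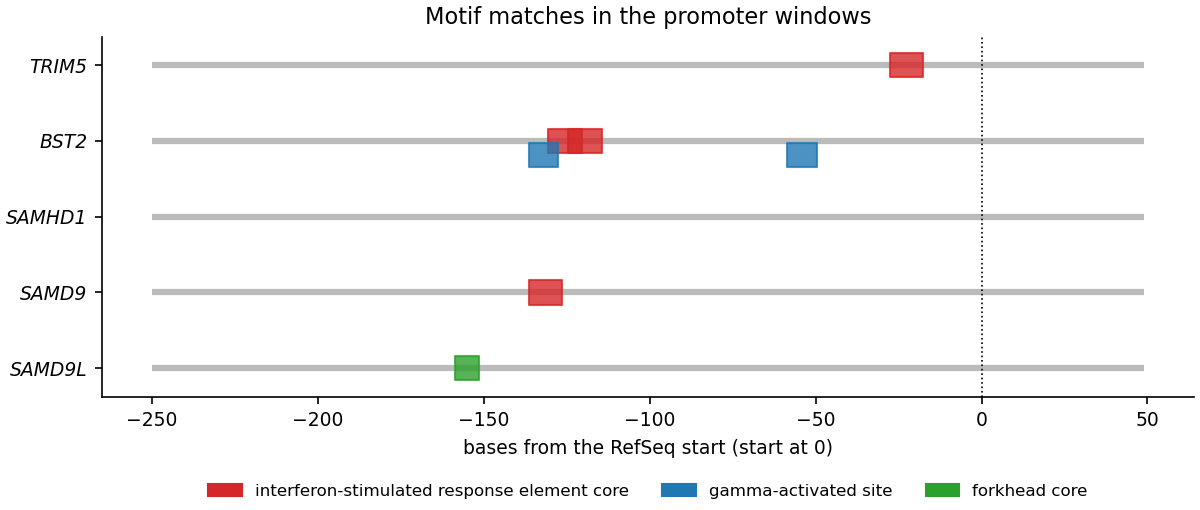
Motif matches in the promoter windows of 5 genes, drawn in bases from the RefSeq start at 0; boxes mark matches to the ISRE core (red), the gamma-activated site (blue) and the forkhead core (green). BST2 carries 2 overlapping ISRE cores near −130, SAMD9 carries 1 near −136, TRIM5 carries 1 close to the start, and SAMHD1 carries none of the motifs.

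In PC3 under FOXA1 siRNA, 9 of the 10 genes were higher in every siFOXA1 library than in every NSI library, by 3.49-fold for TRIM5 up to 30.2-fold for TRIM22 (ratio of mean CPM). APOBEC3B was the exception. The same 9 passed the call threshold as higher (edgeR's quasi-likelihood test, adjusted p under 0.05 over all genes tested), where 15.0% of the 26435 genes tested in PC3 were called higher and 12.1% lower. The 3 siFOXA1 libraries lay above the 3 NSI libraries for 23.9% of all genes tested. These shares are given as background only, since the genes were chosen on this contrast and nothing is read from their count. The number of genes called was 7149, and it was 11297 with the replicate number as a block, 4602 without NSI replicate 3 and 3945 without siFOXA1 replicate 1; 9 of the 10 genes were called in each of these. The median log2 fold change was 3.38 for the 10 genes and 0.02 for all genes tested. In bulk RNA, a change in the share of cells that express a gene and a change in RNA per cell cannot be told apart.

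Of the TRIM genes, TRIM22 encodes an interferon-induced ubiquitin ligase of the TRIM family and lies at chr11:5710919-5732093 on the plus strand. With NSI the 3 PC3 libraries measured 2.9, 2.16 and 3.34 CPM of TRIM22, and with siFOXA1 they measured 87.3, 82.9 and 83.8 CPM. The siFOXA1 values lay close together and far above the NSI values, a log2 fold change of 4.91 (SE 0.16), rank 25 of the 26435 genes tested. TRIM5, at chr11:5684787-5893588 on the minus strand, spans the TRIM22 locus without sharing exon bases with it. It measured 21.6, 17.5 and 21.7 CPM with NSI against 70.4, 64.9 and 77.1 CPM after siFOXA1, without overlap, a log2 fold change of 1.80 (SE 0.12). The TRIM5 change was the smallest of the 9. TRIM5 shared 5.88% of its exon bases with CTD-2643I7.5 on the same strand, a transcript whose own log2 fold change was 1.66 (SE 0.20), so fragments there were divided between them.

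BST2, at chr19:17513748-17516457 on the minus strand, had the highest level per kb of exon of the 10 genes in PC3. It measured 144, 223 and 189 CPM with NSI against 846, 969 and 773 CPM after siFOXA1. The lowest siFOXA1 library was well above the highest NSI library, and the log2 fold change was 2.22 (SE 0.17). RSAD2, at chr2:7017796-7038370 on the plus strand, measured 5.33, 2.78 and 4.92 CPM with NSI against 107, 87.6 and 106 CPM after siFOXA1, a log2 fold change of 4.53 (SE 0.24). Replicate 2 was the lowest in both groups for RSAD2, and the groups did not overlap. SAMHD1, at chr20:35518176-35580304 on the minus strand, measured 47.7, 41.1 and 52.7 CPM with NSI against 258, 229.9 and 261 CPM after siFOXA1, a log2 fold change of 2.40 (SE 0.11). Every siFOXA1 library stood above every NSI library, and the ratio of means was 5.29. TLDC2, on the opposite strand, overlaps 18.8% of the SAMHD1 exon bases, and the PC3 counting ignored strand. Per kb of exon TLDC2 stood at 1.32 ± 0.239 CPM in NSI and 6.19 ± 0.898 CPM in siFOXA1, below SAMHD1 at 7.66 ± 0.938 and 40.5 ± 2.79 CPM.

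The 3 APOBEC3 genes differed among themselves. APOBEC3G, whose enzyme is packaged into retroviral particles, measured 1.13, 0.892 and 1 CPM in PC3 with NSI against 20.5, 21.1 and 22.3 CPM after siFOXA1, a log2 fold change of 4.40 (SE 0.12). APOBEC3F, a close relative of APOBEC3G that acts on the same step, measured 0.212, 0.297 and 0.178 CPM with NSI against 3.26, 2.68 and 3.4 CPM after siFOXA1, a log2 fold change of 3.78 (SE 0.22). Neither gene overlapped between groups, but the ratio between same-numbered libraries ranged more widely for APOBEC3F (9.02 to 19.2) than for APOBEC3G (18.1 to 23.7). APOBEC3B, a nuclear enzyme known as a source of mutations in tumours, measured 2.27, 4.02 and 2.59 CPM with NSI against 2.84, 3.35 and 3.5 CPM after siFOXA1. Its groups overlapped, and its log2 fold change of 0.13 (SE 0.21) was not called.

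These genes stand in 1 cluster on chromosome 22, APOBEC3B at chr22:39378352-39388809, APOBEC3F at chr22:39436609-39449915 and APOBEC3G at chr22:39473010-39483748, all on the plus strand. Of 8 other genes of the APOBEC family, 3 were tested in PC3, all of this cluster. APOBEC3C (67.4 ± 4.02 CPM in NSI, 196 ± 13.3 in siFOXA1) and APOBEC3D (0.511 ± 0.0501 and 1.87 ± 0.295 CPM) rose, with log2 fold changes of 1.54 (SE 0.09) and 1.87 (SE 0.18). APOBEC3A, next to APOBEC3B, was not called, at 0.09 (SE 0.31). The 2 genes at that end of the cluster were therefore the uncalled ones in PC3, and the 4 tested APOBEC3 genes beyond them were called higher. APOBEC3B shares 18.4% of its exon bases with APOBEC3A on the same strand and 12.9% with CTA-150C2.16 on the opposite strand. Fragments that mapped to several genes of this family were divided among them in the deposited counts, so the split between near-identical APOBEC3 genes is uncertain.

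SAMD9 and SAMD9L, paralogs that lie 12.0 kb apart on chromosome 7, were both higher in PC3 siFOXA1. SAMD9, at chr7:92728826-92747336 on the minus strand, measured 55.2, 34.9 and 52.5 CPM with NSI against 404, 309 and 409 CPM after siFOXA1, a log2 fold change of 2.98 (SE 0.19). SAMD9L, at chr7:92759368-92777681 on the same strand, measured 21.6, 12.4 and 18.4 CPM with NSI against 277, 233 and 269 CPM after siFOXA1, a log2 fold change of 3.90 (SE 0.20). Groups did not overlap for either gene, and replicate 2 was the lowest library of both groups for both genes. Across the 10 genes, PC3 replicate 2 was the lowest of its group for 7 genes in NSI and for 7 in siFOXA1.

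**Figure D2:**
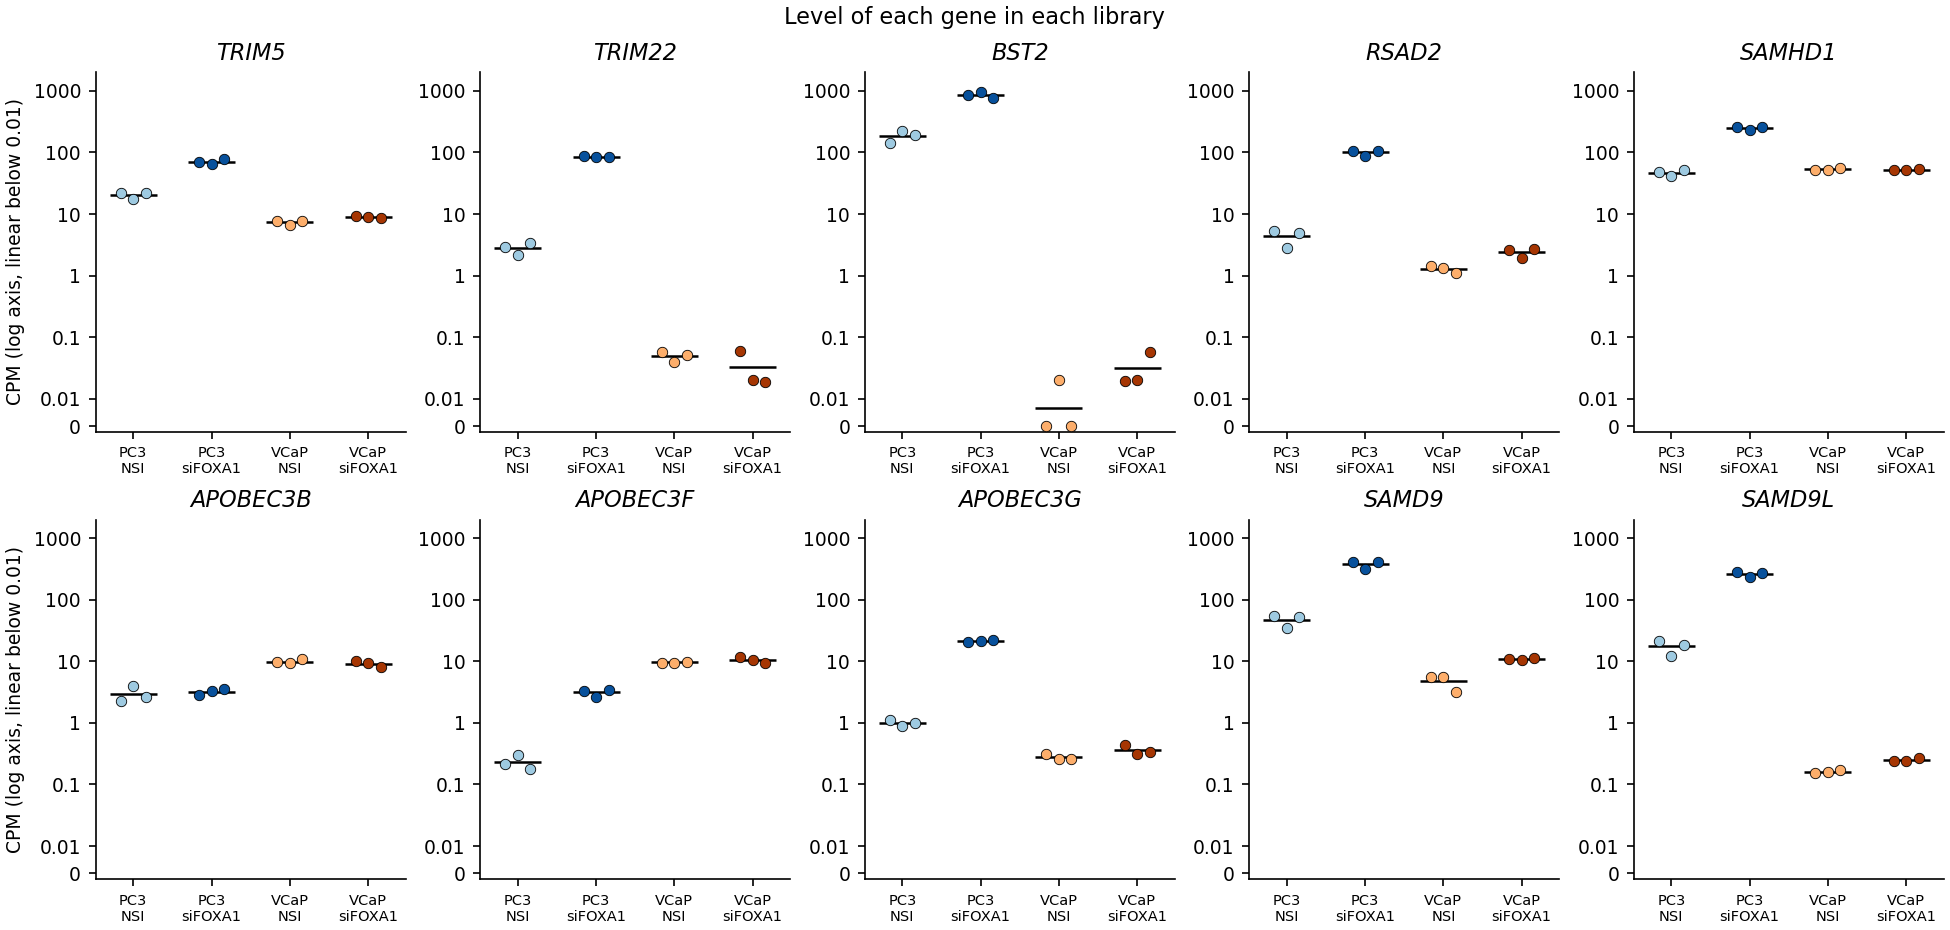
Level of each gene in each of the 12 libraries, in CPM on a log axis that is linear below 0.01, with 1 point per library and a bar at the mean of 3. In PC3 the siFOXA1 points stand above the NSI points for every gene but APOBEC3B, while in VCaP SAMD9 and RSAD2 show the widest separation and BST2 and TRIM22 lie near 0.

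In VCaP, FOXA1 fell by 2.60 on the log2 scale, against 0.65 in PC3 (difference −1.93, SE 0.15, adjusted p = 3.12e-07 by edgeR). Of the 10 genes, 8 passed the filter on low counts, and 3 of them were called higher, SAMD9, RSAD2 and TRIM5, where 22.5% of the 22925 genes tested were called higher and 23.3% lower. For 5 of the 8 tested genes the siFOXA1 libraries lay above all NSI libraries, against 27.9% of all genes tested. These counts too belong to a contrast that chose the genes. The log2 fold changes of the 8 genes ran from −0.11 to 1.19.

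SAMD9 measured 5.66, 5.5 and 3.16 CPM in VCaP with NSI against 10.9, 10.3 and 11.5 CPM after siFOXA1, a log2 fold change of 1.19 (SE 0.19). NSI replicate 3 was the low value, and all siFOXA1 libraries were above every NSI library. Its paralog SAMD9L was scarce in VCaP, at 0.154, 0.159 and 0.174 CPM with NSI against 0.238, 0.239 and 0.267 CPM after siFOXA1. These rest on 26 and 38 rounded counts over 3 libraries each. The SAMD9L groups did not overlap, and the log2 fold change of 0.60 (SE 0.27) was not called.

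RSAD2 measured 1.44, 1.35 and 1.11 CPM in VCaP with NSI against 2.64, 1.91 and 2.74 CPM after siFOXA1, without overlap, a log2 fold change of 0.90 (SE 0.18). TRIM5 measured 7.78, 6.75 and 7.59 CPM with NSI against 9.43, 8.81 and 8.49 CPM after siFOXA1, also without overlap, a log2 fold change of 0.27 (SE 0.09). The TRIM5 call was lost in 10 of the 14 alternative analyses of VCaP, among them DESeq2 and 5 of the 6 that left out 1 library. TRIM22 was near the limit of detection, with 3, 2 and 3 rounded counts in NSI and 3, 1 and 1 in siFOXA1, and was not tested. BST2 had 0, 1 and 0 rounded counts in NSI and 1, 1 and 3 in siFOXA1, and was not tested either.

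SAMHD1 measured 52.3, 51 and 56.4 CPM in VCaP with NSI against 51.7, 51.4 and 53.6 CPM after siFOXA1, overlapping groups with a log2 fold change of −0.03 (SE 0.06). The overlapping antisense gene TLDC2 rose in VCaP from 0.248 ± 0.0838 to 2.24 ± 0.282 CPM, a log2 fold change of 3.18 (SE 0.23), and there the counting used strand. APOBEC3B measured 9.57, 9.27 and 10.7 CPM with NSI against 9.98, 9.46 and 7.98 CPM after siFOXA1 (log2 fold change −0.11, SE 0.11). APOBEC3F measured 9.47, 9.52 and 9.87 CPM with NSI against 11.7, 10.4 and 9.39 CPM after siFOXA1 (log2 fold change 0.13, SE 0.10). Both genes overlapped between groups in VCaP. APOBEC3G measured 0.308, 0.259 and 0.261 CPM with NSI against 0.437, 0.318 and 0.343 CPM after siFOXA1, without overlap, and its log2 fold change of 0.40 (SE 0.24) was not called. Their neighbour APOBEC3C was the 1 other APOBEC gene of 3 tested that was called in VCaP, at 0.156 ± 0.0312 CPM in NSI and 0.392 ± 0.0505 CPM in siFOXA1.

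**Figure D3:**
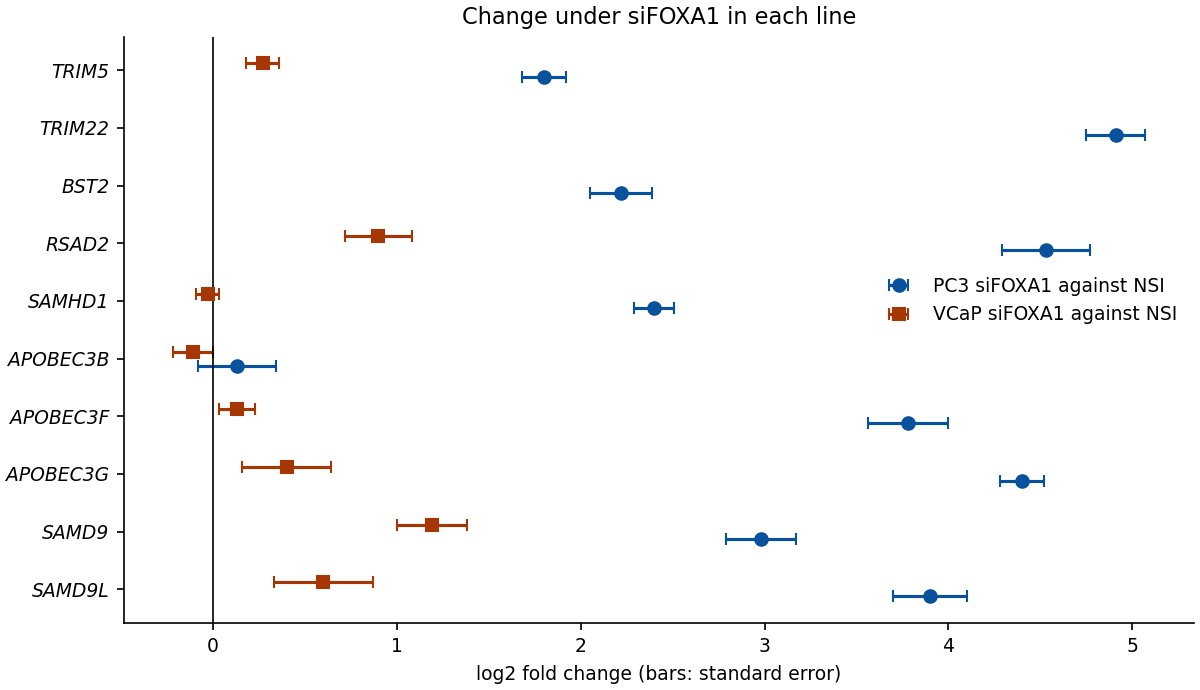
Log2 fold change of siFOXA1 against NSI for each gene in PC3 (circles) and VCaP (squares), with standard errors as bars. TRIM22 and BST2 have no VCaP value because they did not pass the filter on low counts; the PC3 values of 9 genes lie between 1.80 and 4.91, and the VCaP values lie between −0.11 and 1.19.

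Levels under the control siRNA were not part of the choice of genes, although the same NSI libraries serve in the contrasts above. VCaP NSI was therefore tested against PC3 NSI (edgeR's quasi-likelihood test). The cell line cannot be told apart from the library kit, the strand setting, the siRNA dose and the medium in this comparison, in which 42.4% of the 28132 genes tested were called higher in VCaP and 44.6% lower. Of the 10 genes, 2 were higher in VCaP, 7 were lower and 1 was not called. These shares lie on a background in which most genes differed. TRIM22 and BST2 passed the filter only through PC3 and so had to differ.

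APOBEC3F and APOBEC3B were the genes higher in VCaP. APOBEC3F stood at 9.62 ± 0.214 CPM in VCaP and 0.229 ± 0.0618 CPM in PC3, a log2 difference of 5.39 (SE 0.18, adjusted p = 1.79e-10 by edgeR), or 42-fold. APOBEC3B stood at 9.85 ± 0.757 and 2.96 ± 0.932 CPM, a log2 difference of 1.73 (SE 0.18, adjusted p = 3.31e-06 by edgeR). APOBEC3G, in the same cluster, went the other way, at 0.276 ± 0.0279 CPM in VCaP and 1.01 ± 0.12 CPM in PC3 (log2 difference −1.89, SE 0.26, adjusted p = 2.6e-05 by edgeR). All 3 VCaP libraries lay on the same side of all 3 PC3 libraries for each of these genes.

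SAMD9L had the lowest VCaP level relative to PC3 among the genes with more than 8 counts in VCaP NSI, at 0.162 ± 0.0102 against 17.4 ± 4.67 CPM (log2 difference −6.76, SE 0.30, adjusted p = 1.5e-09 by edgeR). SAMD9 followed at 4.77 ± 1.4 against 47.5 ± 11 CPM (−3.34, SE 0.24, adjusted p = 1.08e-07 by edgeR). TRIM5 (log2 difference −1.48, SE 0.13, adjusted p = 5.51e-07 by edgeR) and RSAD2 (−1.77, SE 0.26, adjusted p = 5.64e-05 by edgeR) were lower in VCaP by less. TRIM22 had 8 rounded counts in VCaP NSI against 1357 in PC3 NSI, 55.8 times as many in PC3 for the same library size (95% counting interval 28.3 to 129.6). BST2 had 1 rounded count in VCaP NSI against 87612 in PC3 NSI, a ratio of 28842 for the same library size, with a 95% counting interval of 5176 to 1139199. These intervals cover counting error only, and amplified reads are not independent molecules.

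SAMHD1 was the 1 gene whose NSI levels were not called different, at 53.3 ± 2.82 CPM in VCaP and 47.2 ± 5.78 CPM in PC3 (log2 difference 0.16, SE 0.12, adjusted p = 0.23 by edgeR). Over the alternative analyses its adjusted p ran from 0.00229 to 0.846. With upper-quartile factors, which moved the median of all genes by 0.29, it was called higher in VCaP at 0.45.

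Ordered per kb of exon, which makes genes comparable, PC3 NSI libraries held BST2 far above the rest at 182 ± 39 CPM per kb. SAMHD1 (7.66 ± 0.938), SAMD9 (6.94 ± 1.6) and TRIM5 (5.16 ± 0.611 CPM per kb) came next, and neighbours in that run overlapped between libraries. SAMD9L, APOBEC3B, RSAD2 and TRIM22 formed a lower run from 2.44 to 0.937 CPM per kb in which each overlapped the next. APOBEC3G (0.55 ± 0.0652) and APOBEC3F (0.0754 ± 0.0204 CPM per kb) came last, without overlap. In VCaP NSI the order began with SAMHD1 (8.65 ± 0.458), APOBEC3B (5.19 ± 0.399) and APOBEC3F (3.17 ± 0.0705 CPM per kb). TRIM5 (1.88 ± 0.139), SAMD9 (0.696 ± 0.204), RSAD2 (0.37 ± 0.0489), APOBEC3G (0.15 ± 0.0152) and SAMD9L (0.0228 ± 0.00143 CPM per kb) followed. The only neighbours in VCaP NSI that overlapped were TRIM22 and BST2 at the bottom.

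**Figure D4:**
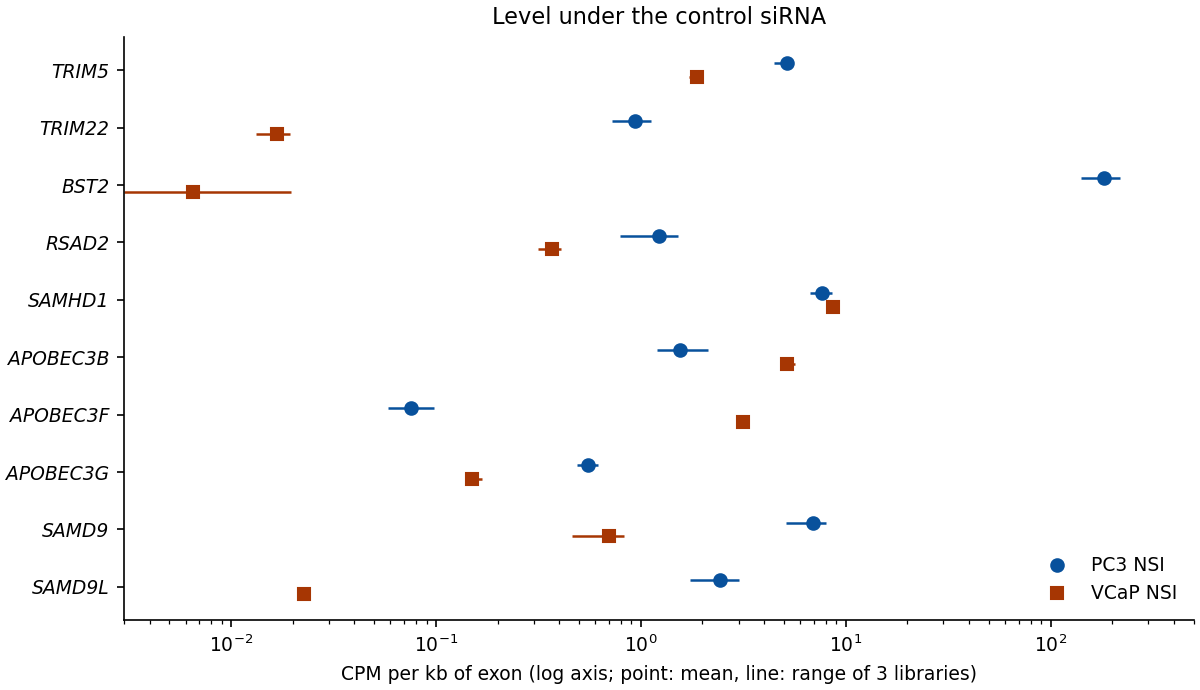
Level of each gene under the control siRNA in PC3 (circles) and VCaP (squares), in CPM per kb of exon on a log axis, with the mean as the symbol and the range of 3 libraries as the line. BST2 and SAMD9L lie far lower in VCaP, APOBEC3F lies far lower in PC3, and SAMHD1 is close in both; the VCaP line of BST2 runs off the axis because its lowest libraries are at 0.

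After FOXA1 siRNA the PC3 order changed below BST2 (847 ± 97.1 CPM per kb). SAMD9 (54.6 ± 8.2) stood above SAMHD1 (40.5 ± 2.79 CPM per kb), and RSAD2 (28.5 ± 3.14) and TRIM22 (28.3 ± 0.779 CPM per kb) were level with each other and above TRIM5 (18 ± 1.55 CPM per kb). APOBEC3F remained the lowest at 1.03 ± 0.125 CPM per kb, below its own level in VCaP. In VCaP siFOXA1 the order from SAMHD1 to SAMD9L was that of VCaP NSI, with SAMD9 at 1.59 ± 0.0848 and RSAD2 at 0.691 ± 0.129 CPM per kb. The summed level of the 10 genes was 329 ± 24 CPM in PC3 NSI and 2030 ± 40.5 CPM in PC3 siFOXA1, of which BST2 made up 56.3% and 42.5%. In VCaP the sums were 86.7 ± 2.72 and 94.8 ± 2.1 CPM, of which SAMHD1 made up 61.4% and 55.1%.

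The genes whose pattern over all 12 libraries was most like that of TRIM22 were IDO1, GBP4, RP11-609D21.3, XAF1 and MX1. Likeness was the root mean square difference in log2(CPM + 0.5) after centring each gene, over 14278 candidates that averaged 5 CPM or more under siFOXA1 in either line, and these 5 had values from 0.288 to 0.361. IDO1, which breaks down tryptophan, stood at 2.53 CPM in PC3 NSI and 50.6 CPM in PC3 siFOXA1 and at 0 in VCaP. MX1, a dynamin-like antiviral GTPase, stood at 31.8 and 663 CPM in PC3 and at 2.31 and 3.19 CPM in VCaP. Among the 10 genes themselves the nearest to TRIM22 were SAMD9 (0.875) and SAMD9L (0.878), and the closest pair was RSAD2 and APOBEC3G (0.398). APOBEC3F (3.92) and APOBEC3B (3.61) were farthest from TRIM22.

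Genes next to the 10 on the chromosome were counted within 100 kb on either side, and 15.0% of all genes tested in PC3 were called higher. Around TRIM22 all 5 tested genes were called higher in PC3. One of them is TRIM5, itself chosen on this contrast, and others are TRIM6 (log2 fold change 1.21) and TRIM34 (2.33). TRIM6 and TRIM34 share reads with the read-through gene TRIM6-TRIM34, so their split is uncertain. Near RSAD2, CMPK2, which encodes a mitochondrial nucleotide kinase, rose from 3.91 ± 1.28 to 94.6 ± 1.86 CPM in PC3, a log2 fold change of 4.59 (SE 0.24), close to that of RSAD2. In VCaP CMPK2 was at 2.93 ± 0.399 and 2.98 ± 0.157 CPM. Near BST2 5 of 18 tested genes were called higher in PC3, among them BISPR, a transcript beside the BST2 start, at 1.48 (SE 0.09), and PLVAP at 2.57 (SE 0.24). In VCaP the TLDC2 change beside SAMHD1 and a lower HEPACAM2 (−1.38, SE 0.32) beside SAMD9 were the largest called changes among these neighbours.

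Other genes of the same processes were counted from lists, drawn up with earlier results of these data known. Of 24 other restriction factors, 22 were tested in PC3, and 17 rose and none fell (median log2 fold change 1.46, against 0.02 for all genes tested). Beside these PC3 counts, and those of the lists below, 15.0% of all genes tested were called higher and 12.1% lower; in VCaP the shares were 22.5% and 23.3%. MX2, a GTPase that blocks nuclear entry of HIV, rose from 5.7 ± 2.77 to 183 ± 3.13 CPM (log2 fold change 5.00, SE 0.38), and MX1 rose by 4.38 on the log2 scale (SE 0.27). In VCaP 17 of these were tested, and 5 rose and 5 fell (median 0.09), shares near those of all genes. SLFN5 rose there from 14 ± 0.572 to 30 ± 1.22 CPM, and HERC5, a ligase for ISG15, fell from 7.79 ± 1.16 to 2.49 ± 0.386 CPM.

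Of 16 other TRIM genes in PC3, 7 rose and 2 fell (median log2 fold change 0.09). TRIM21, an antibody receptor in the cytosol, rose from 11.8 ± 0.465 to 86.2 ± 4.48 CPM, and TRIM28, a corepressor that silences retroelements, fell from 348 ± 42.4 to 265 ± 9.61 CPM. In VCaP 3 of 14 rose and 6 fell (median −0.13). The PC3 falls and the VCaP rises are near the shares of all genes (12.1% and 22.5%). TRIM38 rose there from 0.314 ± 0.0445 to 2.28 ± 0.221 CPM, a log2 fold change of 2.85 (SE 0.18), while TRIM44 fell from 76.5 ± 3.32 to 38.9 ± 1.78 CPM.

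Of the interferon signalling genes, 16 of 23 tested rose in PC3 and none fell (median log2 fold change 2.21). IFIH1, the RNA sensor MDA5, rose from 9.14 ± 2.25 to 115 ± 9.78 CPM. In VCaP 6 of 20 rose and 6 fell (median −0.01), near the 22.5% and 23.3% of all genes. TMEM173, which encodes STING, rose there from 0.582 ± 0.158 to 3.2 ± 0.727 CPM, and USP18, which removes ISG15 from proteins, fell from 9.8 ± 0.107 to 5.12 ± 0.509 CPM. For SAMHD1 the related list is that of deoxynucleotide supply and proliferation. Of its 16 genes 5 fell and none rose in PC3 (median −0.31), while in VCaP 15 fell and 1 rose (median −0.62), where 12.1% of all genes tested in PC3 and 23.3% in VCaP were called lower. RRM2, a subunit of ribonucleotide reductase, fell in VCaP from 123 ± 2.54 to 25.2 ± 4.36 CPM, where the log2 fold change of SAMHD1 was −0.03.

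**Figure D5:**
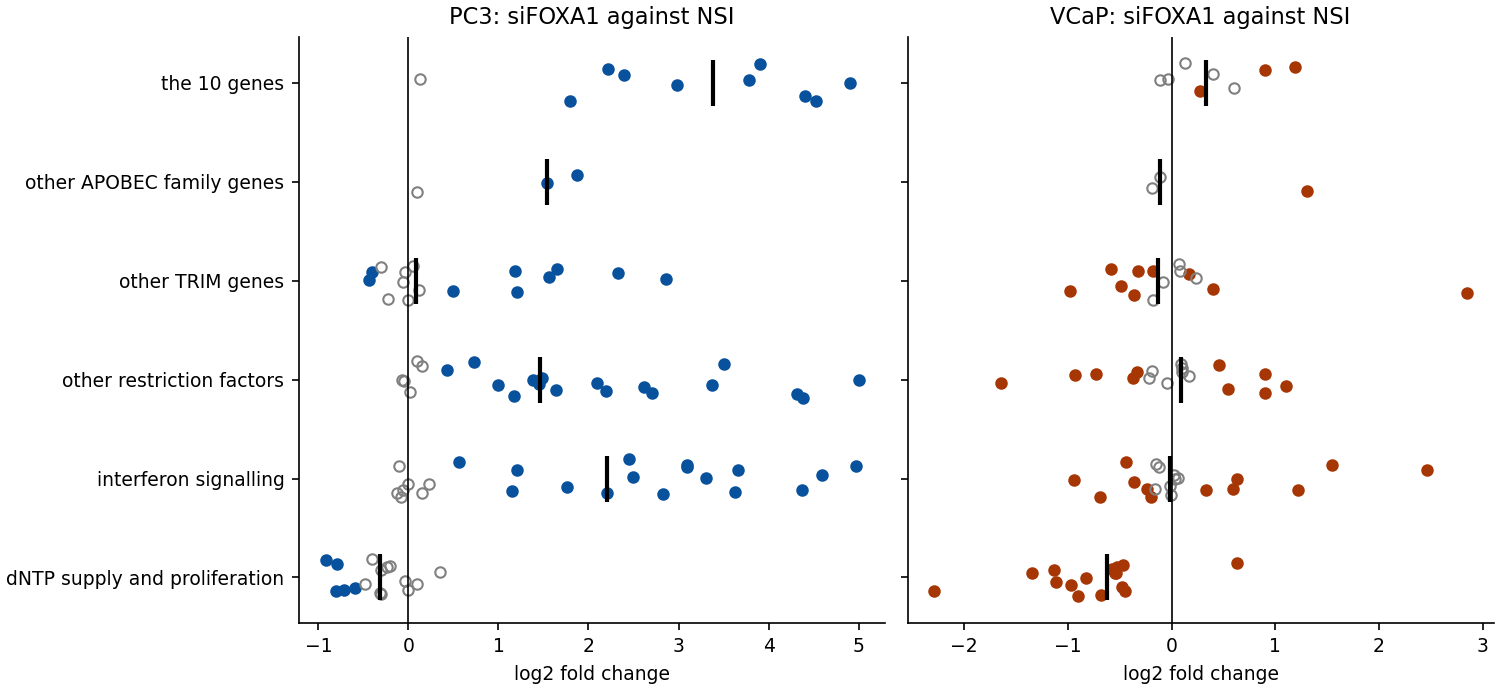
Log2 fold change of siFOXA1 against NSI for the 10 genes and 5 related lists in PC3 (left) and VCaP (right), with 1 point per gene tested, filled where called, and a bar at the median. In PC3 the medians of the 10 genes, of other restriction factors and of interferon signalling lie at 3.38, 1.46 and 2.21; in VCaP all 3 lie between −0.01 and 0.34.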

How the data were processed

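Gene-level RNA counts from 12 libraries were used. Expected counts were deposited, made by the authors with featureCounts 2.0.0 per the file headers, over exons of the GENCODE 28 basic annotation on GRCh37, dividing fragments with several mappings or genes among them. Strand was ignored in PC3 and used in VCaP. STAR 2.7.3a is named in the submitters' processing notes.

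Counts were rounded to whole numbers. Genes were filtered with filterByExpr, scaled with TMM factors and tested with edgeR 4.0.16 (R 4.3.3; quasi-likelihood test, two-sided, Benjamini-Hochberg adjustment over all genes tested, call at an adjusted p under 0.05). Each line was fitted alone, the NSI libraries of both lines together, and the difference between lines over all 12 libraries. Standard errors are the size of the log2 fold change divided by the square root of F. CPM values carry the TMM factors. Those from counts summed over a group (interferon ligands, counting intervals and detection limits) use library totals without these factors. Fitted fold changes include a small prior count, which understates changes near 0. The fits were tested on simulated counts with 200 changed genes.

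The members and all lists were chosen with earlier results of these data known. All 10 genes were named, and of each list the 2 largest rises and falls among called genes of at least 1 CPM; some of these are not reported here. TLDC2, the APOBEC3 and other neighbouring genes were named for their position. Replicates differed by more than sampling noise in all groups. Same-numbered PC3 libraries deviated together from their group means (correlations across genes of 0.41, 0.57 and 0.21), so the numbers were taken to pair them. In VCaP replicate 3 alone did so clearly (0.09, 0.04 and 0.35). The main fits used no pairing, so their standard errors and calls ignore it. Alternatives were DESeq2 1.42.0, other scaling factors, no filter, a minimum log2 fold change of 1, a replicate block, a fit of all libraries and leaving out each library.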

Additional observations from a re-analysis of the deposited data

Results flagged for a closer look

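The effect of FOXA1 siRNA was compared between the lines as the VCaP effect minus the PC3 effect, in 1 fit over all 12 libraries. The difference was called for 8 of the 10 genes, with TRIM22 counted among them. These differences are made of the contrasts on which the genes were chosen, so they are a description. Called more negative in VCaP were 11.0% of the 30425 genes tested. Of all calls 50.7% were more positive in VCaP, or 40.5% with library size alone as the scaling, under which the same number of members was called. On the log2 scale the difference was −5.49 for TRIM22, −3.97 for APOBEC3G, −3.64 for APOBEC3F, −3.60 for RSAD2, −3.27 for SAMD9L, −2.41 for SAMHD1, −1.76 for SAMD9 and −1.51 for TRIM5. The TRIM22 value rests on 8 and 5 rounded counts in VCaP, where the gene did not pass the filter. TRIM22 entered this fit through PC3 alone, so its size and its call are not read. The difference was −0.22 (SE 0.24) for APOBEC3B and was not called, but without PC3 NSI replicate 2 it was −0.53 and called. BST2, with 1 and 5 rounded counts in VCaP NSI and siFOXA1, is left out of the list above. It also entered through PC3 alone, and its difference of −0.03 (SE 0.24) was not called. SAMHD1 stood at similar levels in the NSI libraries of both lines and had 8527 counts in VCaP NSI and 8002 in VCaP siFOXA1, so its difference does not rest on scarce counts. The line cannot be told apart from the kit, strand setting, dose and medium.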

How the results depend on the processing

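The log2 fold changes were compared case by case, a case being 1 gene under 1 alternative. In PC3, 139 cases kept their direction and their side of the call threshold, and 1 changed sign. Over the 8 genes tested in VCaP, 98 cases kept both, 11 lost the call and 3 changed sign. For the NSI levels 129 kept both and 1 gained a call. For the difference between lines, with BST2 left out, 170 kept both and 1 gained a call. TRIM22 is among the genes of that difference, although its call is not read. All 40 levels per kb moved by less than 1 SD when counts were not rounded. With a minimum log2 fold change of 1, calls fell to 2464 in PC3, 2852 in VCaP and 3368 for the difference between lines, and members called in VCaP to 1, because that rule asks for a larger change. Leaving out 1 library gave 3945 to 7592 calls in PC3, 8734 to 9975 in VCaP and 5477 to 7229 for the difference between lines, with 9 members called in PC3 each time and 2 to 3 in VCaP. The lowest PC3 counts were 3945 without siFOXA1 replicate 1 and 4602 without NSI replicate 3. Without NSI replicate 2 the count was 7592, above the 7149 of the main fit. Each of these fits left out 1 library, and why their counts differ was not tested. The replicate block gave 11297 calls in PC3 and 11482 in VCaP, and it changed no call among the 10 genes. Changed signs were those of uncalled genes near 0, and their cause was not tested: APOBEC3B in PC3 was −0.03 without NSI replicate 1 (−0.03 to 0.41 leaving out each library), and SAMHD1 in VCaP was 0.02 with upper-quartile factors, 0.00 in the fit of all 12 libraries and 0.01 without NSI replicate 3 (−0.07 to 0.01 leaving out each library). TRIM5 in VCaP lost its call in 10 of 14 alternatives (adjusted p from 0.0164 to 0.125 by edgeR or DESeq2), and RSAD2 lost it with the minimum change alone. Upper-quartile factors moved the median NSI difference of all genes tested by 0.29. It also moved by 0.29 with DESeq2 and by −0.11 with no filter. Those last fits took in 48306 genes against 28132 in the main fit, so their medians are over another set of genes. Under these alternatives the 10 genes kept their NSI direction and call, except SAMHD1, which was called with upper-quartile factors. Depth limits TRIM22 and BST2 in VCaP, where 3 counts over a group amount to 0.0188 CPM in NSI and 0.0195 in siFOXA1.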

Other observations

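Of the interferon ligands, 4 were on the interferon signalling list (IFNB1, IFNL1, IFNL2 and IFNL3), and their counts were low. IFNB1, which encodes interferon beta, had 0, 2 and 0 rounded counts in PC3 NSI and 15, 13 and 20 in PC3 siFOXA1, or 0.106 CPM (95% exact Poisson interval 0.0783 to 0.141, counting error only). IFNL1, which encodes a type III interferon, had 4, 0 and 1 rounded counts in PC3 NSI and 53, 49 and 61 in PC3 siFOXA1, or 0.36 CPM (0.307 to 0.42). IFNL2 and IFNL3, near-identical genes whose reads may be split between them, had 0 rounded counts in PC3 NSI and did not pass the filter. In the PC3 siFOXA1 libraries IFNL2 had 15, 1 and 4 rounded counts and IFNL3 had 13, 3 and 7. For all 4 genes every PC3 siFOXA1 library held more counts than every PC3 NSI library, which for IFNL2 rests on 1 count in replicate 2. By CPM, the siFOXA1 libraries lay above the NSI libraries for 23.9% of all genes tested in PC3. In VCaP IFNB1 had 0 counts over the 3 NSI libraries, for which the 95% exact Poisson upper limit is 0.0231 CPM, and 1 over the 3 siFOXA1 libraries. IFNL1 had 1 in each group, and IFNL2 and IFNL3 had none.

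The stromal markers were also summed. Their level over 7 genes was 21.8 to 25.8 CPM in PC3 NSI and 35.9 to 40 CPM in PC3 siFOXA1, and in VCaP 16.9 to 24.6 CPM in NSI and 6.38 to 10.7 CPM in siFOXA1. Most of the PC3 sum was COL1A1, a collagen gene, which rose from 20.7 ± 1.97 to 31.8 ± 1.71 CPM (log2 fold change 0.62, SE 0.10) and was picked out after its values were seen. Of 5 markers tested in PC3, 3 were called higher and 1 lower, PDGFRB (−0.63, SE 0.20). Of 6 tested in VCaP, 1 was called higher, ACTA2 (0.81, SE 0.14), and 3 lower. The largest of these falls was that of LUM, which encodes lumican, from 10.5 ± 2.68 to 0.667 ± 0.0831 CPM (log2 fold change −3.97, SE 0.22). Among all genes tested, 15.0% were called higher and 12.1% lower in PC3, and 22.5% and 23.3% in VCaP. None of the 7 was at 0 in all 3 libraries of a group. The part of these markers in the results for the 10 genes was not tested.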
